A study of Mus musculus with 6 samples.

Results

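The marrow of lethally irradiated mice that received mouse mesenchymal stromal cells (mMSCs) was set against the marrow of mice that received BM cells after the same dose. These are the 4 arrays of the MSC and HSC pools, out of 6 in the series, and they were assigned by their labels. The comparison and the gene lists were chosen with earlier results of these data known. Each of the 2 MSC arrays carried pooled marrow RNA of 3 female C57BL/6J mice aged 6 to 10 weeks, irradiated with 9.5 Gy and given 1000000 bulk mMSCs. Each of the 2 HSC arrays carried pooled marrow RNA of 2 mice of the same description, irradiated with 9.5 Gy and given 1000000 whole BM cells, a mixture that includes the hematopoietic stem cells (HSCs) after which the group is named. The 2 arrays of unmanipulated BM, with 2 age-matched mice pooled on each and no irradiation, serve here as a reference level. The methods call the recipients female C57BL/6J-CD45.1 mice and the donor animals male C57BL/6J mice. They make no separate statement on the sex of the BM cell donors. Marrow was flushed on day 21 according to the methods, whereas the design text of the series speaks of 7 months. The mMSCs were a mixed culture expanded over many passages and not a single clone. The pools hold different mice, but no label says more about how they were formed, so that p-values cover only the spread between these pools.

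Lethal irradiation empties the marrow of dividing blood cells. A graft of BM cells brings stem cells that refill it. In contrast, mMSCs are cultured stromal cells of the marrow, and reports differ on whether such cells give rise to blood cells. B cells are made in the marrow in ordered steps. Progenitors that express the transcription factor Ebf1 rearrange their immunoglobulin genes with the Rag recombinase, and pre-B cells then display the rearranged heavy chain together with a surrogate light chain, built in part from Vpreb proteins, on the signalling chains Cd79a and Cd79b. In whole marrow RNA, fewer cells of a type and less RNA in each cell cannot be told apart.

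Of 19801 probes on each array, 11660 were above background on both arrays of the MSC or of the HSC group and were tested with limma. Values are log2 intensities, the brightness of a spot after background correction and quantile normalization. At an adjusted p under 0.05, 9 probes were higher (0.0772% of those tested) and 49 were lower (0.42%) in MSC than in HSC recipients, together 58 (0.497%). At an unadjusted p under 0.05, 782 were higher and 1200 lower. The median log2 fold change of all tested probes was 0.00407, and 50.4% of them lay above 0. In 53.2% of the tested probes the MSC and HSC values did not overlap. All 9 higher probes and 40 of the lower ones have a gene symbol. The other 9 lower probes have none and had log2 fold changes between -4.85 and -1.45.

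**Figure D1:**
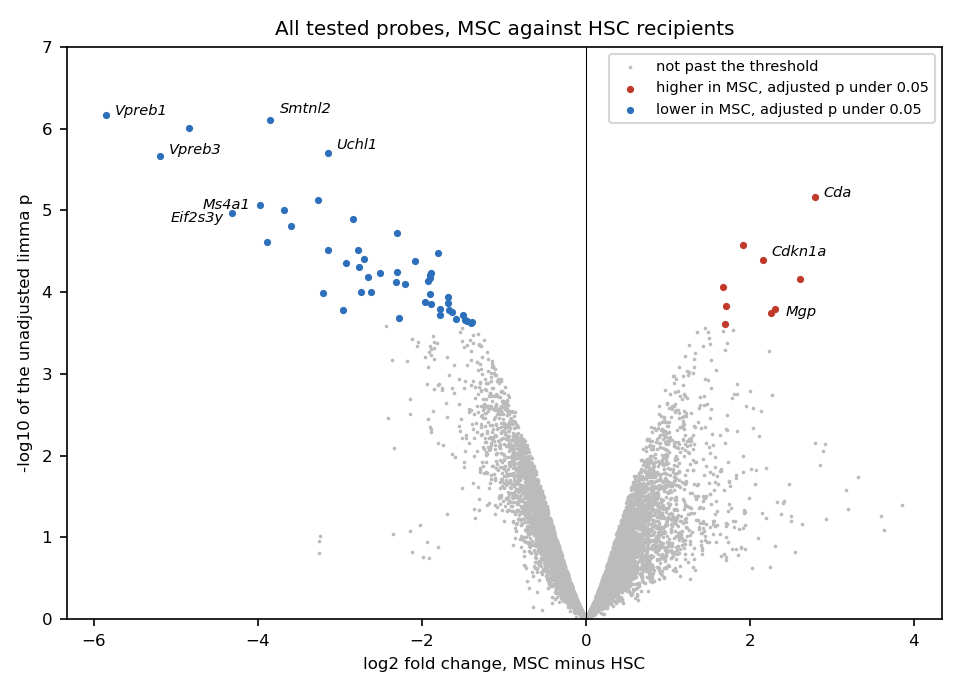
Log2 fold change of each tested probe, MSC minus HSC (x axis), against the -log10 of its unadjusted limma p (y axis), with 1 point for each of 11660 probes. The 49 lower probes (blue) reach further from 0 than the 9 higher ones (red), down to -5.85 for Vpreb1. For probes not above background in a group, such as Eif2s3y and Cda, the fitted value is plotted, which is no measured fold.

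The arrays differed within groups, and probes higher in MSC differed more often between the BM arrays than lower ones did. The MSC arrays had 11735 and 12510 probes above background and the HSC arrays 11072 and 11088, with 12324 and 11245 on BM replicate 1 and BM replicate 2. The median spot was 2.61 and 2.68 times as bright as its local background on the MSC arrays, 2.19 and 2.29 times on the HSC arrays, and 2.49 and 2.09 times on the BM arrays. Thus BM replicate 1 lay nearer to the MSC arrays and BM replicate 2 nearer to the HSC arrays, although both held untreated marrow. Of 449 probes with a log2 fold change above 1 and a value on both BM arrays, 190 (42.3%) were also higher by more than 1 on BM replicate 1 than on BM replicate 2, against 5.39% of all tested probes with such values. Of 372 probes with a log2 fold change below -1, 4 (1.08%) were. None of the called probes with both BM values had such a gap, but since all 6 arrays share the estimate of the spread, a gap between the BM arrays itself makes a call less likely. Whether the same factor separates the BM arrays and the MSC from the HSC arrays was not tested. The MSC pools also differed from each other, with 398 probes higher by more than 1 in MSC replicate 2 and 112 higher by more than 1 in MSC replicate 1, out of 11400 tested probes with a value on both BM arrays.

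Genes of B cell development stood among the strongest differences, with Vpreb1 and Vpreb3 first of all. Vpreb1, a surrogate light chain gene, stood at 8.33 and 8.79 on the MSC arrays and at 14.24 and 14.57 on the HSC arrays. This is 57.6-fold lower in MSC recipients (log2 fold change -5.85, SE 0.26, limma adjusted p = 0.00379). The only usable BM spot read 11.93, between both groups. The probe may also read its near-identical neighbour Vpreb2, which was not measured by a probe of its own. Vpreb3, whose product assembles with the pre-B cell receptor, stood at 7.46 and 8.58 on the MSC arrays, 13.16 and 13.26 on the HSC arrays and 12.42 and 12.59 on the BM arrays (log2 fold change -5.19, SE 0.36, limma adjusted p = 0.00499). Here the HSC arrays lay close to BM and both MSC arrays lay far below, with MSC replicate 1 not above background.

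The promoters of both genes are shown because no other named genes differed as much. The sequences are RefSeq promoters of build GRCm38.p6, from 250 bases before to 50 bases after the start of transcription. Vpreb1 lies at chr16:16869206-16869505 on the minus strand, and the capitals mark an E-box with the letters CAGGTG, bound by E proteins, starting 88 bases before the start site. Vpreb3 lies at chr10:75948050-75948349 on the plus strand, and the capitals mark the octamer of immunoglobulin promoters, ATGCAAAT, which reads here from the opposite strand and begins 45 bases before the start site.
Vpreb1: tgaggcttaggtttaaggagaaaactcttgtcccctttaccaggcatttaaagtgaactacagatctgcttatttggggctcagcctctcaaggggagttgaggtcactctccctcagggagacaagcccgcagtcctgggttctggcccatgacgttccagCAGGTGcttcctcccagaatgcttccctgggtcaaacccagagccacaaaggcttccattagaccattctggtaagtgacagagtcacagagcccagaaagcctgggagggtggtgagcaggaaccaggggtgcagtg
Vpreb3: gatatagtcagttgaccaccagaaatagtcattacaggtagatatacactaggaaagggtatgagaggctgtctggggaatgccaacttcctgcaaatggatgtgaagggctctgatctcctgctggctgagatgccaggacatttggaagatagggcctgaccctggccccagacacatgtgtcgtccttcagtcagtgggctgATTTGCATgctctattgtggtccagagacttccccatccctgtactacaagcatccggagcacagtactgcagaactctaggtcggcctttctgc
On either strand, CAGGTG occurs in 20.2% and ATGCAAAT in 1.74% of 32851 such promoters. Of the 29 lower genes with a promoter in this set, 7 hold CAGGTG and 1, Vpreb3, holds ATGCAAAT. The core recognised by Ebf1, searched as CCCNNGGG, occurs in 13.7% of promoters and in 7 of the 29, but in neither of the 2 windows shown. A gene counts here with a match in any of its promoters, whereas the percentages are of single promoters, so these shares are not alike. These matches describe letters and not binding.

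The receptor on which the surrogate light chain sits was uneven. Of 12 listed genes of the surrogate light chain and pre-B cell receptor 10 were tested, 3 fell (Vpreb1, Vpreb3 and Cd79b), 0 rose and 7 did not pass. Their median log2 fold change was -1.52. Cd79b stood at 8.66 and 9.27 on the MSC arrays, 12.04 and 12.41 on the HSC arrays and 12.13 and 12.27 on the BM arrays, 9.62-fold lower in MSC (SE 0.27 on the log2 scale, limma adjusted p = 0.0125). Its partner chain Cd79a, by contrast, read 11.53 and 11.86 in MSC and 11.96 and 11.51 in HSC recipients, so that the groups overlapped (log2 fold change -0.04). Ighm, the heavy chain of IgM, had 12.19 and, from a saturated spot, 15.18 on the MSC arrays and 13.90 and 13.34 on the HSC arrays, and the 2 MSC pools lay on either side of the HSC pools. The kinase gene Syk read 10.46 and 10.28 in MSC and 11.81 and 11.96 in HSC recipients (limma adjusted p = 0.0529), and the adaptor gene Blnk 7.24 and 7.64 in MSC and 9.28 and 8.64 in HSC recipients (limma adjusted p = 0.122). Neither of these passed. Their groups did not overlap, as was the case for 53.2% of all tested probes.

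Of 13 tested genes of V(D)J recombination and early B regulation, 4 fell, 0 rose and 9 did not pass, with a median of -1.31 and 12 of the 13 below 0. Ebf1 read 8.54 and 8.98 on the MSC arrays, 11.37 and 11.83 on the HSC arrays and 10.96 and 10.97 on the BM arrays (log2 fold change -2.84, SE 0.26, limma adjusted p = 0.0134). Rag2, a subunit of the recombinase, read 8.95 and 8.75 in MSC, 10.74 and 10.82 in HSC and 9.12 and 9.54 in BM (limma adjusted p = 0.0271). Dntt, the terminal transferase that adds bases at the joints, read 7.21 and 8.50 in MSC, 10.70 and 10.92 in HSC and 8.83 and 8.68 in BM (limma adjusted p = 0.0414). For Rag2 and Dntt the BM values lay nearer to MSC, whereas for Ebf1 they lay nearer to HSC. Bach2, a repressor of plasma cell fate, fell by 1.97 on the log2 scale (limma adjusted p = 0.0379). Rag1, the other recombinase subunit, had a log2 fold change of -1.02 (limma adjusted p = 0.210), Irf4 one of -1.70 and the receptor gene Il7r one of -1.38. Pax5, which holds cells in the B lineage, had a log2 fold change of -0.34 and ranged between 7.60 and 8.18 over all 6 arrays. It was above background on only 1 BM array, so that its probe could hardly show a fall.

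Among 12 tested genes of mature B cells, 2 fell, 0 rose and 10 did not pass (median -0.23). Ms4a1, the gene of CD20, read 7.30 and 8.18 on the MSC arrays, 11.77 and 11.66 on the HSC arrays and 12.22 and 11.67 on the BM arrays (log2 fold change -3.98, SE 0.34, limma adjusted p = 0.0126). Fcmr, the Fc receptor of IgM, read 8.12 and 7.88 in MSC, 10.42 and 11.12 in HSC and 11.46 and 11.97 in BM (limma adjusted p = 0.0248), an order with BM on top. The kinase gene Blk was at least 3.66-fold lower in MSC, where it was not above background (limma adjusted p = 0.0707), and Fcrla read 7.50 and 9.08 in MSC and 11.13 and 10.28 in HSC recipients (limma adjusted p = 0.121). Further along the lineage, 0 of 8 plasma cell genes passed. The plasma cell chaperone gene Mzb1, also made by B cells, read 9.92 and 12.09 in MSC and 13.10 and 13.59 in HSC recipients (limma adjusted p = 0.154).

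**Figure D2:**
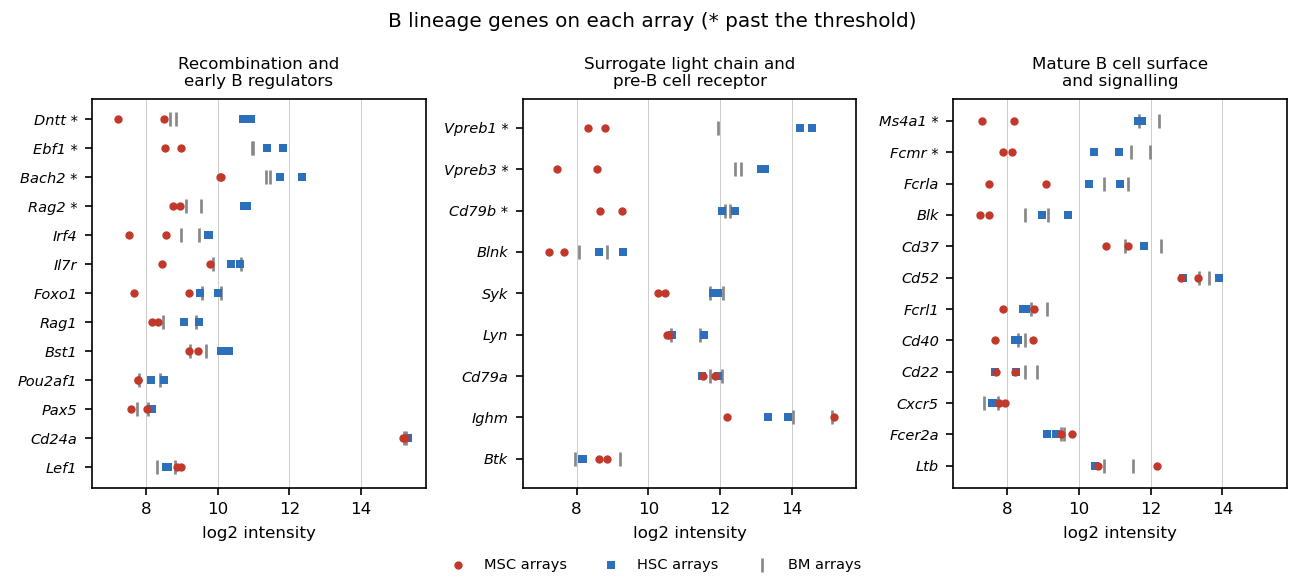
Log2 intensity (x axis) of tested B lineage genes on each array, 1 of which is not shown, with MSC arrays as red circles, HSC arrays as blue squares and BM arrays as grey bars, in 3 panels by stage. Stars mark the 4, 3 and 2 genes that fell, and Cd79a and Ighm in the middle panel overlap between the groups.

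Outside these lists, further lower genes are known from lymphoid cells. Ly6d, which marks progenitors committed to the B lineage in mice, read 10.06 and 11.07 on the MSC arrays, 14.08 and 14.82 on the HSC arrays and 14.23 and 14.18 on the BM arrays (log2 fold change -3.88, SE 0.39, limma adjusted p = 0.0200). Cd93, found on immature B cells as well as on progenitors and endothelium, read 11.34 and 11.02 in MSC and 12.73 and 12.89 in HSC recipients (limma adjusted p = 0.0427). In both genes the MSC values lay below all HSC and BM values. These 2 genes were grouped here after their values were seen.

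Across the 49 lower probes, the mean of BM lay between the MSC and HSC means for 41, above both for 7 and below both for 1. It was nearer to HSC for 42 and nearer to MSC for 7. All 49 were above background on both HSC arrays, 29 on both MSC arrays and 10 on no MSC array. Vpreb3, Ms4a1, Myl4, Dntt, Akap12 and Upb1 were above background on only 1 MSC array. Their log2 fold changes thus rest in part on a spot not above background. Among the 7 nearer to MSC were Dntt, Rag2, the zinc exporter gene Slc30a4, Hmgcll1 and Rpl26. Of the 9 higher probes, BM was nearer to HSC for 7, the exceptions being Fhl1 and Zc3h11a.

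**Figure D3:**
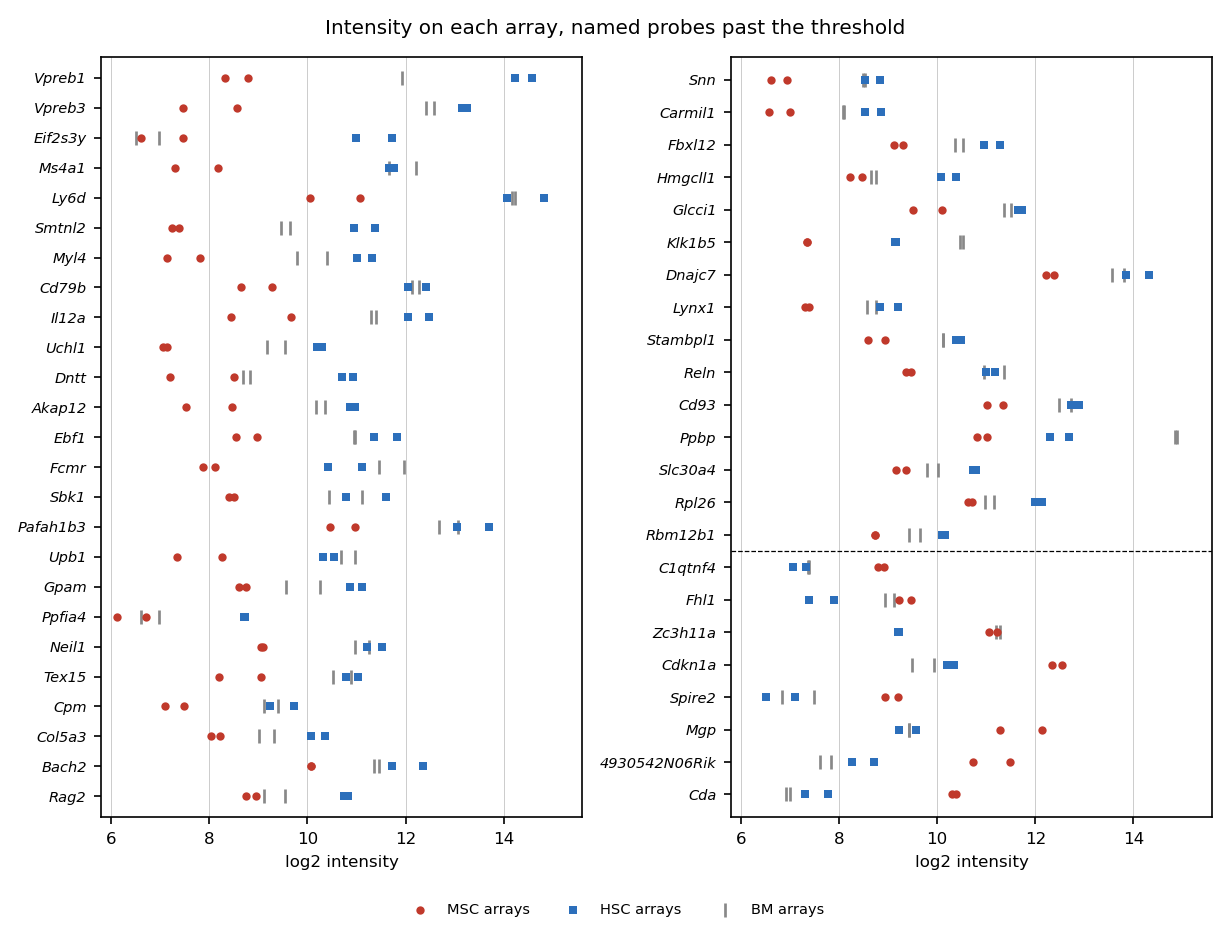
Log2 intensity (x axis) on each array of the named probes past the threshold, 1 of which is not shown, ordered by fold change, with MSC arrays as red circles, HSC arrays as blue squares and BM arrays as grey bars. The genes below the dashed line were higher in MSC, and the grey bars of most genes lie on the HSC side.

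A Y-linked gene separated the transplants. Eif2s3y, a translation factor gene on the Y chromosome, read 7.47 and 6.61 on the MSC arrays, where it was not above background, and 11.73 and 10.98 on the HSC arrays. It was thus at least 15.7-fold lower in MSC (limma adjusted p = 0.0127). The BM arrays, of female mice, read 6.51 and 6.97 and were not above background either. Ddx3y, a helicase gene of the same chromosome, read 7.02 and 7.08 in MSC, 8.50 and 8.14 in HSC and 6.02 and 6.90 in BM, and was above background only on the HSC arrays (limma adjusted p = 0.143). Kdm5d and Usp9y had log2 fold changes of -0.42 and -0.16, and both were above background on the BM arrays too, so that their probes gave signal in female marrow. Of 4 tested Y-linked genes, 1 fell and 3 did not pass.

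Several lower genes encode contractile, cytoskeletal or neuronal proteins. Smtnl2, a smoothelin-like protein, read 7.24 and 7.39 in MSC, not above background, 10.95 and 11.38 in HSC and 9.47 and 9.64 in BM, at least 13.6-fold lower in MSC (limma adjusted p = 0.00379). Myl4, a myosin light chain of embryonic and atrial muscle, read 7.15 and 7.81 in MSC, 11.32 and 11.01 in HSC and 9.78 and 10.41 in BM (log2 fold change -3.69, SE 0.32, limma adjusted p = 0.0126). Of 13 listed skeletal muscle genes only 4 were tested, of which 0 passed (median -0.21). Uchl1, a ubiquitin hydrolase abundant in neurons, read 7.06 and 7.13 in MSC, not above background, 10.19 and 10.30 in HSC and 9.18 and 9.54 in BM, at least 7.39-fold lower in MSC (limma adjusted p = 0.00499). For all 3 genes the order was MSC lowest, BM between and HSC highest. Akap12, an anchor of protein kinase A, fell by 2.92 on the log2 scale (limma adjusted p = 0.0231), and the kinase gene Sbk1 fell by 2.75 (limma adjusted p = 0.0318). Reln, the secreted protein reelin, fell by 1.67 (limma adjusted p = 0.0414), Lynx1, a modulator of acetylcholine receptors, was at least 3.17-fold lower (limma adjusted p = 0.0384), and Carmil1, which acts on actin capping, was at least 2.51-fold lower (limma adjusted p = 0.0320). This grouping was made after the values were seen.

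Enzymes of lipid and base metabolism were among the lower genes as well. Gpam, the first enzyme of glycerolipid synthesis, read 8.76 and 8.60 in MSC, 10.87 and 11.11 in HSC and 9.56 and 10.25 in BM (log2 fold change -2.31, SE 0.28, limma adjusted p = 0.0276). It was the only one of 19 tested genes of fatty acid, glycerolipid and sterol synthesis to pass, and the list's median was 0.37. The elongase gene Elovl6, in the same direction, had a log2 fold change of -0.93 (limma adjusted p = 0.116). Pafah1b3, a subunit of platelet-activating factor acetylhydrolase, fell by 2.65 (limma adjusted p = 0.0267) and Hmgcll1, an HMG-CoA lyase-like enzyme, by 1.89 (limma adjusted p = 0.0262). Upb1, which completes pyrimidine breakdown, read 8.27 and 7.35 in MSC, 10.32 and 10.54 in HSC and 10.69 and 10.98 in BM (limma adjusted p = 0.0318).

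Proteases and their relatives behaved alike in part. Klk1b5, a tissue kallikrein, read 7.34 on both MSC arrays, not above background, 9.14 and 9.16 on the HSC arrays and 10.46 and 10.52 on the BM arrays, at least 3.41-fold lower in MSC than in HSC (limma adjusted p = 0.0216). Klk1, the founding member of the family, was not above background in MSC either, with 7.00 and 7.10 against 8.85 and 8.97 in HSC and 9.87 and 10.67 in BM (at least 2.92-fold, limma adjusted p = 0.0603). Both thus stood highest in BM and lowest in MSC. Of 4 tested kallikreins 1 fell, 3 did not pass and 0 lay above 0 (median -1.17). Only 1 of the 4 was above background on both MSC arrays, and 3 were on both HSC arrays. Entry to the test through HSC alone favours values below 0, so this count and median cannot show a direction of the family. The genes are close copies of one another, so that a probe may read several of them. Cpm, the membrane carboxypeptidase M, was at least 4.12-fold lower (limma adjusted p = 0.0279).

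Il12a, the p35 subunit of the cytokine IL-12, was the only called gene among 22 tested proinflammatory cytokines and mediators. It read 9.67 and 8.43 on the MSC arrays, 12.05 and 12.47 on the HSC arrays and 11.29 and 11.39 on the BM arrays (log2 fold change -3.21, SE 0.40, limma adjusted p = 0.0318). The list as a whole leaned the other way, with 15 of 22 above 0 and a median of 0.39. Saa3, an acute phase protein made by macrophages and stroma, read 10.63 and 10.96 in MSC, at most 9.12 in HSC and 7.45 and 7.36 in BM, where it was not above background (log2 fold change 2.24, SE 0.37, limma adjusted p = 0.0649). The monocyte chemokine Ccl8 read 13.92 and 15.21 in MSC, 12.77 and 12.29 in HSC and 9.99 and 9.02 in BM (limma adjusted p = 0.131), the spot of MSC replicate 2 being saturated, and Ccl7 read 9.70 and 11.93 in MSC, 8.84 and 8.65 in HSC and 7.06 and 7.50 in BM (limma adjusted p = 0.194). None of these passed. Each gene had its MSC values above its HSC values and its HSC values above its BM values. MSC and HSC values did not overlap in 53.2% of all tested probes. Ccl7 was above background on only 1 HSC array and on 0 BM arrays. Il15, a growth factor of lymphocytes, went the other way, with 9.57 and 9.46 in MSC and 10.62 and 10.48 in HSC recipients (limma adjusted p = 0.104). The anti-inflammatory cytokine Il10 read 8.72 and 9.99 in MSC and was not above background in HSC recipients, with 7.50 and 7.21, at least 3.57-fold higher in MSC (limma adjusted p = 0.102). Of 12 anti-inflammatory mediators 0 passed, and 6 lay above 0.
Interferon-induced genes gave 0 calls among 26 tested, with 21 above 0 and a median of 0.49. Against BM, the median of this list was 1.00 for MSC and 0.58 for HSC recipients, 2 differences that share the BM arrays. In 5 of the 26 genes BM replicate 1 exceeded BM replicate 2 by more than 1, and this was not tested further.

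The higher genes belong to no single list. Cda, the cytidine deaminase of pyrimidine salvage, read 10.29 and 10.39 on the MSC arrays, 7.30 and 7.78 on the HSC arrays and 6.93 and 7.00 on the BM arrays, the last 4 not above background. It was at least 6.45-fold higher in MSC (limma adjusted p = 0.0125). Of 14 tested genes of pyrimidine and purine salvage it alone passed, with a list median of 0.24. Mgp, matrix Gla protein, an inhibitor of calcification made by stromal cells, read 11.28 and 12.13 in MSC, 9.22 and 9.57 in HSC and 9.42 and 9.44 in BM (log2 fold change 2.31, SE 0.31, limma adjusted p = 0.0414). In both genes the HSC arrays stood near BM and the MSC arrays above.
Cdkn1a, the gene of p21, which halts the cell cycle, read 12.34 and 12.54 in MSC, 10.21 and 10.35 in HSC and 9.95 and 9.50 in BM (log2 fold change 2.16, SE 0.23, limma adjusted p = 0.0229). Spire2, an actin nucleator, was at least 2.93-fold higher (limma adjusted p = 0.0432), and its second probe at least 3.09-fold without passing (limma adjusted p = 0.0636). Likewise, the lower DNA glycosylase gene Neil1 had a called probe at -2.30 (limma adjusted p = 0.0168) and a second one at -1.67 (limma adjusted p = 0.0883). For both genes, then, the probes pointed the same way.
Zc3h11a, an mRNA export factor gene, differed between its probes. The called probe read 11.06 and 11.22 in MSC, 9.21 and 9.22 in HSC and 11.27 and 11.19 in BM, so that HSC stood apart from both other groups (log2 fold change 1.92, limma adjusted p = 0.0207). The second probe had a log2 fold change of -0.36 (limma adjusted p = 0.662). Fhl1, a LIM domain protein of muscle, read 9.22 and 9.46 in MSC, 7.89 and 7.39 in HSC and 8.94 and 9.11 in BM, again with HSC apart (limma adjusted p = 0.0495). C1qtnf4, a secreted relative of C1q, was at least 2.53-fold higher (limma adjusted p = 0.0299), and 4930542N06Rik, a transcript of unstated function, had a log2 fold change of 2.61 (limma adjusted p = 0.0269).

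Beyond Cdkn1a, 19 other tested p53 targets did not pass, but 17 of the 20 lay above 0 (median 0.415). Phlda3, an inhibitor of Akt signalling, read 10.39 and 9.88 in MSC and 8.69 and 9.03 in HSC recipients (limma adjusted p = 0.116). Zmat3, Bax and Ccng1 had log2 fold changes of 0.85, 0.81 and 0.65 with limma adjusted p-values of 0.178, 0.224 and 0.198. For each of them the groups did not overlap, as was the case for 53.2% of all tested probes. Of 31 tested genes of the cell cycle 0 passed, and 21 lay above 0 (median 0.45). Cdk1, the mitotic kinase gene, had a log2 fold change of -0.40 (limma adjusted p = 0.452). The spots of the proliferation marker gene Mki67 were saturated on all 4 arrays, so that its probe gives no difference. The phosphatase gene Cdc25c read 8.11 and 8.07 in MSC and was not above background in HSC recipients (at least 1.48-fold higher, limma adjusted p = 0.0967). In 6 of these 31 genes BM replicate 1 was higher than BM replicate 2 by more than 1, among them the replication gene Mcm7, with 9.04 and 9.48 in MSC, 6.81 and 7.05 in HSC, and 9.69 and 6.45 in BM.
Among 24 tested genes of DNA repair 1 fell, Neil1, 0 rose and 23 did not pass (median 0.14). H2ax, the histone variant marked at DNA breaks, read 10.86 and 11.34 in MSC and 7.92 and 7.63 in HSC recipients, where 1 array was above background, a log2 fold change of 3.33, but the BM arrays read 11.34 and 7.45 (limma adjusted p = 0.204). The gap within untreated marrow was here as large as that between the transplants.

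Genes of antioxidant defence leaned upward together without a call. Of 27 tested, 0 passed, 20 lay above 0 and 11 had an unadjusted p under 0.05, all of them higher in MSC (median 0.55). Over all tested probes, 782 of 11660 were higher at that level. Srxn1, which repairs oxidised peroxiredoxins, read 9.63 and 10.13 in MSC, 8.53 and 8.80 in HSC and 8.65 and 8.82 in BM (log2 fold change 1.21, limma adjusted p = 0.104). Nqo1, a quinone reductase, read 9.67 and 9.59 in MSC, 8.74 and 8.26 in HSC and 8.78 and 8.44 in BM (limma adjusted p = 0.113). Gclm, which helps to make glutathione, read 14.21 and 13.91 in MSC and 13.14 and 13.12 in HSC recipients (limma adjusted p = 0.133), and Hmox1, the enzyme that breaks down haem, 12.59 and 13.57 in MSC and 11.81 and 11.80 in HSC recipients (limma adjusted p = 0.147). In these 4 genes the BM arrays lay with the HSC arrays or nearer to them than to the MSC arrays. Pink1, a kinase of mitochondrial quality control, read 9.87 and 10.23 in MSC and was not above background in HSC recipients, at least 4.11-fold higher (limma adjusted p = 0.113), but BM was split between 9.55 and 8.11. Of 12 glutathione transferases 0 passed and 6 lay above 0 (median 0.035). Gstm5 read 12.49 and 12.63 in MSC and 11.31 and 11.08 in HSC recipients (limma adjusted p = 0.0541), and Mgst1, a microsomal enzyme, 11.16 and 10.75 in MSC and 12.20 and 11.78 in HSC recipients (limma adjusted p = 0.131).
Heat shock chaperones showed 0 calls among 13, with 10 above 0 (median 0.56). The inducible pair Hspa1a and Hspa1b, whose sequences are nearly identical, had log2 fold changes of 1.79 and 1.28 (limma adjusted p = 0.0541 and 0.148). Among 17 immediate early genes 0 passed and 15 lay above 0 (median 0.45). Ier3 read 12.56 and 12.53 in MSC, 11.16 and 11.41 in HSC and 11.25 and 11.19 in BM (limma adjusted p = 0.0603), while Fos read 10.85 and 12.17 in MSC, 8.85 and 8.30 in HSC, and 12.02 and 7.48 in BM. Only in the first did the BM arrays resemble each other.

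**Figure D4:**
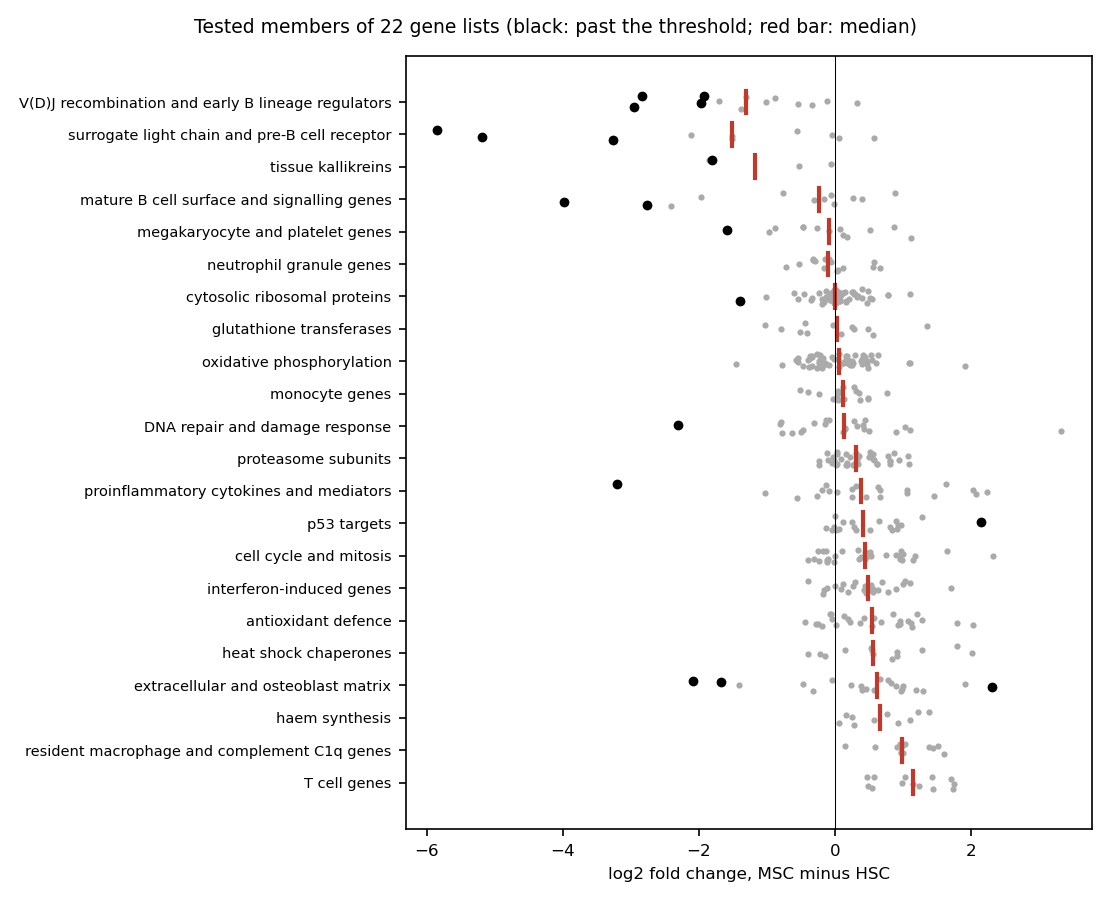
Log2 fold change, MSC minus HSC (x axis), of the tested members of 22 gene lists, with 1 point per gene, black where past the threshold and grey otherwise, and a red bar at the median of each list. The medians run from -1.52 for the pre-B cell receptor and -1.31 for recombination and early B regulators to 1.15 for T cell genes, in which no point is black.

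T cell genes had the highest median of all lists, 1.15, with 13 of 13 tested genes above 0, yet 0 passed. The difference rested mainly on 1 pool. Cd3d, a chain of the T cell receptor complex, read 10.66 and 13.14 on the MSC arrays, 10.68 and 10.24 on the HSC arrays and 10.91 and 10.60 on the BM arrays (limma adjusted p = 0.354). Lck, the kinase of that receptor, read 11.71 and 13.71 in MSC and 11.47 and 11.65 in HSC recipients, and the costimulator gene Icos 8.82 and 10.88 in MSC and 8.04 and 8.17 in HSC recipients. Thus MSC replicate 1 lay close to HSC and MSC replicate 2 far above, as in 10 of the 13 genes, which were higher by more than 1 in the second pool. Without MSC replicate 1, only this second pool stands for MSC, so that setting cannot show whether the difference holds across pools. Of 11 tested genes of natural killer and cytotoxic cells 0 passed and 8 lay above 0, with a median of 0.33. MSC replicate 2 exceeded MSC replicate 1 by more than 1 in 7 of them. The cytotoxic genes Gzmb and Gzmk showed this split, with 8.68 and 10.68 for Gzmb and 8.60 and 10.54 for Gzmk on the MSC arrays.
Resident macrophage and complement C1q genes followed the pattern of the T cell genes, with 13 of 13 above 0, a median of 0.99 and 0 calls. C1qa, a chain of the first complement component, read 12.71 and 13.94 in MSC, 12.19 and 12.53 in HSC and 12.12 and 11.49 in BM (limma adjusted p = 0.312), and the scavenger receptor gene Marco 8.89 and 10.68 in MSC, 8.33 and 8.35 in HSC and 7.94 and 7.32 in BM. The mannose receptor gene Mrc1 read 9.19 and 11.66 in MSC and 9.22 and 8.43 in HSC recipients. In 12 of these 13 genes MSC replicate 2 exceeded MSC replicate 1 by more than 1, against 398 of 11400 tested probes. Of 15 tested MHC class II and dendritic cell genes 0 passed (median 0.23). Only in 5 of them did MSC replicate 2 exceed MSC replicate 1 by more than 1. H2-Ab1 was split, with 11.95 and 13.77 in MSC and 11.84 and 11.11 in HSC recipients. By contrast, H2-Ob, an MHC class II chain typical of B cells, read 7.88 and 8.65 in MSC and 9.92 and 9.99 in HSC recipients (limma adjusted p = 0.0707). What set the second MSC pool apart was not tested.

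Genes of red cells leaned upward in MSC, and none of the red cell and myeloid lists held a call. Of 10 tested enzymes and carriers of haem synthesis all lay above 0 and 0 passed (median 0.67). Fech, which inserts iron into haem, read 14.46 and 14.47 in MSC, 13.44 and 12.70 in HSC and 13.95 and 13.66 in BM (limma adjusted p = 0.104), with MSC values above all HSC and BM values. Of 21 red cell membrane, globin and regulator genes 0 passed and 19 lay above 0 (median 0.49). Slc4a1, the anion exchanger of red cells, read 13.03 and 13.31 in MSC and 12.12 and 10.81 in HSC recipients, but differed as widely between the BM arrays, at 13.17 and 10.23.
Among 16 neutrophil granule genes 0 passed, with a median of -0.10, and the collagenase gene Mmp8 read 14.96 and 14.85 in MSC and 15.52 and 15.33 in HSC recipients, where both spots were saturated, so that the size of its difference cannot be read. Monocyte genes gave 0 calls among 17 (median 0.115), eosinophil, basophil and mast cell genes 0 among 13 (median -0.17), and stem and progenitor genes 0 among 11 (median 0.09).
Of 13 tested platelet genes 1 fell and 6 lay above 0 (median -0.09). The gene that fell was Ppbp, a chemokine stored in platelet granules. It read 11.02 and 10.82 in MSC, 12.31 and 12.69 in HSC and 14.90 and 14.85 in BM (log2 fold change -1.58, SE 0.22, limma adjusted p = 0.0465). Treml1 read 8.22 and 8.27 in MSC, 9.02 and 9.40 in HSC and 11.48 and 11.61 in BM (limma adjusted p = 0.116), and Clec1b, a platelet activating receptor, 9.21 and 9.49 in MSC, 10.20 and 10.24 in HSC and 11.97 and 11.95 in BM (limma adjusted p = 0.129). In all 3 genes MSC stood lowest, HSC next and BM highest without overlap. MSC and HSC values did not overlap in 53.2% of all tested probes. Gp9, a chain of the receptor for von Willebrand factor, had means in the same order, but its values of 9.54 and 8.99 in MSC overlapped those of 9.34 and 10.13 in HSC recipients, with 10.25 and 10.62 in BM. Pf4, another granule chemokine, did not share the order between the transplants, with 9.46 and 11.28 in MSC and 9.19 and 9.30 in HSC recipients.

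Stromal and matrix genes moved in both directions. Of 22 tested matrix genes 1 rose (Mgp), 2 fell (Reln and Col5a3) and 19 were not called, with a median of 0.62. Col5a3, a chain of the fibril collagen type V, read 8.04 and 8.21 in MSC, 10.07 and 10.37 in HSC and 9.02 and 9.33 in BM (log2 fold change -2.09, SE 0.23, limma adjusted p = 0.0229). The other chains of the same collagen lay on the other side of 0, Col5a1 with 10.21 and 9.70 in MSC and 8.94 and 8.95 in HSC recipients (limma adjusted p = 0.129) and Col5a2 with 8.73 and 9.06 in MSC and 8.14 and 7.84 in HSC recipients (limma adjusted p = 0.143). Their differences from Col5a3 were not tested. Col3a1, a collagen of reticular fibres, read 10.54 and 10.44 in MSC, 9.29 and 9.71 in HSC and 8.66 and 8.27 in BM (limma adjusted p = 0.139), and the collagenase gene Mmp13 9.29 and 9.57 in MSC, 8.66 and 7.81 in HSC and 7.50 and 7.31 in BM (limma adjusted p = 0.148). Spp1, osteopontin, had a log2 fold change of 1.91 (limma adjusted p = 0.168), Thbs2, thrombospondin 2, was at least 1.49-fold higher (limma adjusted p = 0.152), and Emid1, a secreted matrix protein, read 8.37 and 8.48 in MSC and 9.78 and 9.88 in HSC recipients (limma adjusted p = 0.0948). All 22 tested matrix genes were above background on both MSC arrays, but only 16 on both HSC arrays. The others entered the test through MSC alone, which favours higher values there. At an unadjusted limma p under 0.05, 10 matrix genes were higher and 3 lower. Over all 11660 tested probes, 782 were higher and 1200 lower at that level.
Among 11 niche factors 0 passed (median 0.05), and the retention chemokine gene Cxcl12 was split within MSC, at 8.79 and 11.55, and within BM, at 10.66 and 7.66, around HSC values of 8.81 and 8.10. Adipocyte genes gave 0 calls among 8 (median 0.42), and haematopoietic growth factors and their receptors 0 among 17 (median -0.01). Of 10 endothelial genes 0 passed, and Cldn5, a tight junction protein, read 14.15, from a saturated spot, on MSC replicate 1 and 8.64 on MSC replicate 2 against 7.93 and 7.66 in HSC recipients (limma adjusted p = 0.304), so that its difference rested on 1 pool.

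The remaining called genes have varied roles. Dnajc7, a co-chaperone of Hsp70 and Hsp90, read 12.38 and 12.23 in MSC, 13.85 and 14.31 in HSC and 13.56 and 13.81 in BM (log2 fold change -1.78, limma adjusted p = 0.0414). Tex15, needed for meiotic recombination in mouse testis, read 9.06 and 8.21 in MSC, 11.04 and 10.79 in HSC and 10.53 and 10.88 in BM (limma adjusted p = 0.0462). Glcci1, a gene induced by glucocorticoids, read 9.52 and 10.09 in MSC, 11.65 and 11.73 in HSC and 11.37 and 11.51 in BM (limma adjusted p = 0.0384). In these 3 the BM values lay much nearer to HSC. The F-box protein gene Fbxl12 and the deubiquitinase gene Stambpl1 fell by 1.90 and 1.68 on the log2 scale (limma adjusted p = 0.0267 and 0.0341), and the RNA-binding protein gene Rbm12b1 by 1.39 (limma adjusted p = 0.0482). Slc30a4 read 9.37 and 9.16 in MSC, 10.72 and 10.80 in HSC and 9.79 and 10.02 in BM (limma adjusted p = 0.0434). Snn and Ppfia4, a liprin, were not above background in MSC and at least 2.5-fold and 2.57-fold lower there (limma adjusted p = 0.0267 and 0.0262). A second Snn probe was not tested.

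Of 68 cytosolic ribosomal protein genes 1 fell, Rpl26, with 10.70 and 10.63 in MSC, 11.99 and 12.13 in HSC and 10.98 and 11.16 in BM (log2 fold change -1.40, limma adjusted p = 0.0482), and the median of the list was 0.01. Of the study's reference genes, Taf12 had a log2 fold change of -0.08, with 1 usable MSC spot, and Rps27a was saturated on all 4 arrays, so that its probe gives no difference. Of 62 tested genes of oxidative phosphorylation 0 passed (median 0.06). Cox6a2, the muscle form of a cytochrome oxidase subunit, read 7.36 and 7.85 in MSC and 9.24 and 8.86 in HSC recipients (limma adjusted p = 0.0781). Proteasome subunits gave 0 calls among 39, though 32 lay above 0 (median 0.32), and 10 had an unadjusted limma p under 0.05, all higher in MSC. Over all 11660 tested probes, 50.4% lay above 0 and 782 were higher at that level. Psme3, an activator of the proteasome, read 13.08 and 12.81 in MSC, 11.80 and 11.93 in HSC and 12.45 and 12.06 in BM (limma adjusted p = 0.112).

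The calls differed in how far they rested on single arrays. Of the 49 named probes, 10 passed without each of the 4 MSC and HSC arrays in turn, and 39 lost the call without at least 1 of them. The highest limma adjusted p with 1 of these arrays left out was 0.107 for Cdkn1a, 0.173 for Mgp and 0.165 for Dntt. Without MSC replicate 1, 28 of the 49 calls were lost, without MSC replicate 2 36, without HSC replicate 1 33 and without HSC replicate 2 38. Cdkn1a and Rag2 were lost without any 1 of these 4 arrays, Col5a3 likewise, Mgp and Il12a without any but MSC replicate 1, and Dntt without either HSC array. Without either BM array, Fhl1, Ppbp, Rbm12b1, Rpl26 and Slc30a4 were lost. Eif2s3y and Ms4a1 kept their calls without each of the 4 arrays. Under every limma alternative that tested them except the crossed pairing, where single genes were not followed, 8 passed: Vpreb1, Vpreb3, Cd79b, Ebf1, Ly6d, Myl4, Smtnl2 and Uchl1. With the pool number as a block, 1 probe was higher and 14 were lower. The count of higher probes was 58 without MSC replicate 1 and 11 without MSC replicate 2, and that of lower probes 32 and 17, so that the balance of both directions turned without MSC replicate 1.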

How the data were processed

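RNA of pooled marrow was hybridized to 6 CodeLink arrays, with mouse probes according to the methods, although the label protocol names a human array. The authors deposited, for each spot, the mean intensity and the median local background intensity, on a linear scale, with quality marks from the scanner software. They also deposited a table of log2 values, used here only as an alternative, since its normalization is not given in the sources used here. All its columns have a median of 7.87. In that table the order within each array is that of the absolute background-subtracted intensity, so that spots below background read as positive.

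Background correction used normexp with an offset of 50, followed by quantile normalization across all 6 arrays. Values are on the log2 scale. After that, spots marked as defective, contaminated or excluded (209 to 558 probes per array) and 488 control spots were left out. The number of arrays limits the precision. Of 19801 probes, 14632 were named for 13831 genes through their sequence record (10712), the gene number (3642) or the array annotation (278). For a gene with several probes, the one with the highest mean over the arrays stands for it in a list.

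MSC and HSC were compared with limma 3.58.1 under R 4.3.3 in a two-sided moderated test, with all 6 arrays sharing 1 estimate of the spread and with Benjamini-Hochberg adjustment over all tested probes. A probe that no array of a group measured above background has only a bound there: the brighter group's mean is set against the dim group's mean of, per array, the lowest signal among probes above background or the probe's signal, whichever is higher. The pipeline was tested on simulated data. Named were called probes with a symbol, members of each list past the threshold or with the largest changes, Y-linked genes and genes named in the study, and further ones were chosen after their values were seen. The comparison and the lists were chosen with earlier results of these data known. Each array lies on its own slide, so that slide and pool cannot be told apart. Tables and figures were made with Python 3.11.15, pandas 2.3.3 and matplotlib 3.10.9. Results of a few genes are not reported here.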

Additional observations from a re-analysis of the deposited data

How the results depend on the processing

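Counts are of probes higher, then lower, in MSC than in HSC, with 9 and 49 in the analysis reported. They were 6 and 31 with background subtraction and a floor, 5 and 37 with an offset of 16, 9 and 48 with cyclic loess, 16 and 125 with median scaling, which moved the median of all tested probes to -0.148, and 3 and 21 in the deposited log2 values. They were 1 and 18 without a filter on dim probes (19720 tested), 11 and 47 for probes above background on all 6 arrays (8848 tested), 21 and 48 with only the 4 arrays compared and 16 and 61 with a trend in the variance. The methods' t-test gave 11 and 23 at the study's thresholds, and 0 and 0 after Benjamini-Hochberg adjustment, where limma gave 58 in all and 1222 probes had an unadjusted t-test p under 0.05. The lower probes made up 84.5% of the calls, and 69.6% with only the 4 arrays compared. Marking defective spots before normalization, an alternative chosen after seeing the data, gave 9 and 47. Leaving out 1 array gave between 2 and 58 higher and between 17 and 48 lower probes, with 58 and 32 without MSC replicate 1 (35.6% lower), 11 and 17 without MSC replicate 2, 2 and 40 without HSC replicate 1, 2 and 39 without HSC replicate 2, and 21 and 48 without either BM array. There the lone array of a group is assumed to vary like the other groups. The cause of these shifts was not tested.

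With the pool number as a replicate block the counts were 1 and 14. Deviations of equally numbered pools correlated at -0.188 between MSC and HSC, -0.279 between MSC and BM and 0.479 between HSC and BM, so that the numbers are not treated as pairs. The crossed pairing, added after seeing the data, gave 0 and 6.

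No called gene changed direction. Among uncalled genes named above, the log2 fold change changed sign for Cd79a with cyclic loess (0.00382) and between -0.258 and 0.186 when 1 array was left out, for Ighm with median scaling (-0.496) and between -1.43 and 1.56, and for Rps27a, whose spots were saturated, with cyclic loess (0.0353) and between -0.0642 and 0.0198. Without 1 array, Cd3g, a further chain of the T cell receptor complex, ranged between -0.197 and 2.27, and Usp9y between -0.313 and 0.00321. Cda had a limma adjusted p of 0.0543 without MSC replicate 2. Probes not above background in a group give only bounds, and their fitted values in medians, counts and plots are no measured folds.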
